A study of Mus musculus with 15 samples.

Results

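The genes of the mouse major histocompatibility complex (MHC, named H2 in the mouse) and of antigen presentation were examined in kidney RNA. The set holds every gene whose name starts with H2- together with Cd74, Ciita, B2m, Tap1, Tap2, Tapbp and Nlrc5. It numbers 45 of the 33058 genes in the deposited table, and the value of a gene is the sum of its transcripts' FPKM (a fragment count divided by transcript length in kilobases and by the size of the library). By name, 27 members are class I genes, 9 are class II genes, 5 belong to the class I pathway (B2m, Tap1, Tap2, Tapbp and Nlrc5) and 2 to the class II pathway (Cd74 and Ciita). The last 2, H2-Ke6 and H2-Pa, carry the H2- prefix and were counted in neither class. Some of the class I genes by name are annotated as pseudogenes, among them H2-K2 and, as a polymorphic pseudogene, H2-Q5.

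MHC class I molecules, made of a heavy chain and the B2m light chain, display peptides from inside the cell to CD8 T cells on nearly all nucleated cells. The peptides enter the endoplasmic reticulum through the Tap1-Tap2 transporter and are loaded with the help of tapasin (Tapbp), and the transactivator Nlrc5 drives the class I promoters. MHC class II molecules, an alpha with a beta chain, display peptides from endosomes to CD4 T cells and are made mainly by dendritic cells, B cells and macrophages, under the transactivator Ciita. The invariant chain Cd74 fills the class II groove until H2-DM, tuned by H2-O, exchanges its remnant for a peptide.

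The study followed kidney aging in male C57BL/6 mice (C57BL/6J in the study's methods), with 1 library from each of 15 mice and 5 mice at each of 3 months (replicates 5 to 9, here young), 12 months (17 to 21) and 24 months (31 to 35, here old). The labels name no transgene and no agent, and the kidneys were compared by age alone. The titles of all samples begin with 3MK, and the age was taken from the age label. The labels describe removal of ribosomal RNA and a stranded total RNA kit whereas the study's methods describe oligo(dT) beads and, in another place, pooled RNA. The p-values measure the spread between libraries, those of the ages compared in the main tests of age and all 15 in the correlations.

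Aligned bases were 5.03 to 6.13 Gb in young mice, 5.84 to 8.03 Gb at 12 months and 6.07 to 7.33 Gb in old mice. Genes above 0 FPKM numbered 23354 to 24198 in young mice and 24462 to 25435 in the other mice, without overlap. Of the genes with an unadjusted p under 0.05, 76.7% were higher at 24 than at 3 months and 79.8% were higher at 12 than at 3 months. After scaling by the median of gene ratios these shares were 55.6% and 53.9%, and the median log2 fold change of genes with a mean of at least 1 FPKM moved from 0.05 to -0.04 (24 against 3 months) and from 0.08 to -0.03 (12 against 3 months). The part of depth in the results below was not tested. The proximal tubule markers Lrp2, Slc34a1 and Slc5a2 summed to 1163 to 1681 FPKM per mouse and were above 0 in every library. Library totals apart, the FPKM carry no counts, and the precision of each value is the spread between the 5 mice.

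Promoter sequences of members of both classes are printed to show the elements through which Ciita and Nlrc5 are known to act. Background knowledge holds that class II promoters carry an X box, bound by the RFX and CREB proteins, followed by a Y box, bound by NF-Y, and that Ciita or Nlrc5 docks on these proteins. Windows from 250 bases before to 50 after the RefSeq start (GRCm38.p6) were at hand for 32 members. The following stretches run 5′ to 3′ from 190 to 21 bases before the start, with capitals marking, on either strand, the Y box core GATTGG, the X box core, the CRE-like TGACGTCA, an interferon-response-like element or a kappaB-like element, and class II genes are listed before class I genes and B2m.
H2-Eb1 (chr17:34305677-34305846, plus strand): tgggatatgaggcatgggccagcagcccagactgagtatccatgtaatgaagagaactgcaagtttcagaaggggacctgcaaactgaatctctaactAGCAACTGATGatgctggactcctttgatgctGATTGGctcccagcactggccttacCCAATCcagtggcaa
H2-DMb1 (chr17:34153001-34153170, plus strand): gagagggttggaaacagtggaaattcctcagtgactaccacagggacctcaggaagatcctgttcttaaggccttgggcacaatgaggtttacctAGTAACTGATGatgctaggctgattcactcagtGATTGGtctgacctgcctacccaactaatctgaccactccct
H2-Ob (chr17:34238715-34238884, plus strand): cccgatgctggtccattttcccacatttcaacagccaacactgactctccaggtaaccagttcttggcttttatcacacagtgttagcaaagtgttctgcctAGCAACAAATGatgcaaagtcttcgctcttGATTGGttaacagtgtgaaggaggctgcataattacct
H2-Aa (chr17:34287844-34288013, minus strand): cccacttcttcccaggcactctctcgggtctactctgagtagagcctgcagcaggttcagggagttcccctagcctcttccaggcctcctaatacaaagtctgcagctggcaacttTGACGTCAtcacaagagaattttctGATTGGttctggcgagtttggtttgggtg
H2-K1 (chr17:34000368-34000537, minus strand): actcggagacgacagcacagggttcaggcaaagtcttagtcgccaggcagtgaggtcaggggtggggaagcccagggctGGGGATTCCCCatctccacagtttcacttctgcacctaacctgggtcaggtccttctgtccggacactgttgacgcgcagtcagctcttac
H2-D1 (chr17:35262904-35263073, plus strand): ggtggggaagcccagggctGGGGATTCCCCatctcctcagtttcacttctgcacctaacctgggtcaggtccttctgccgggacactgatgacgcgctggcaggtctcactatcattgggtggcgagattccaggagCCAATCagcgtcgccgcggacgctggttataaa
H2-Q6 (chr17:35424660-35424829, plus strand): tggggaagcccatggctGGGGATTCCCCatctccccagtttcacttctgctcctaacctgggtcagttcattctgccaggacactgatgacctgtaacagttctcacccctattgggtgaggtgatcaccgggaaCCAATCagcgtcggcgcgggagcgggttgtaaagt
H2-T23 (chr17:36032722-36032891, minus strand): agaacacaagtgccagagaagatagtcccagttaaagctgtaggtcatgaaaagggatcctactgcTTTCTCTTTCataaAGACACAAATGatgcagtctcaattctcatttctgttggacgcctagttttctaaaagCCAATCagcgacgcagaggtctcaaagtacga
B2m (chr2:122147497-122147666, plus strand): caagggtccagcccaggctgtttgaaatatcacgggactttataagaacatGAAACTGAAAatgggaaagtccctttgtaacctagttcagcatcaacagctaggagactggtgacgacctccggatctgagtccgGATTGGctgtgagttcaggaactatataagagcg

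The Y box core was found in the windows of all 8 class II genes with an entry, in 14 of 20 class I genes and in B2m and Tap1, against 16.1% of all 32851 windows. Its position varied, and in H2-DMa and Tap1 it began 199 and 222 bases before the start. In H2-K1 it began within 8 bases of the start, past the end of the printed stretch. The X box core was found in H2-Eb1, H2-DMb1, H2-Ob, H2-Oa and H2-Eb2, thus in 5 of 8 class II genes, and in 6 of 20 class I genes, against 3.09% of all windows. In H2-Eb1, H2-DMb1 and H2-Ob the X core began 92, 95 and 88 bases before the start and a Y core 60, 62 and 58 bases before it (H2-Eb1 held another at 35). In H2-Eb2 the X core began at 133 and the Y core at 101, and in H2-Oa at 141 and 44, so the spacing was wider in H2-Oa than in the other 4. It was also wider than in those 4 in all 6 class I genes. In H2-T23 the X core began at 110 and the Y core at 52. In the other class I genes the X core began at 124 to 223 and the Y core at 66 to 76. H2-Aa held the CRE-like letters (1.79% of all windows) 74 bases before its start and a Y core at 49. The kappaB-like letters stood in H2-K1, H2-D1 and H2-Q6 and in no class II window, against 0.0304% of all windows. The interferon-response-like letters (3.44% of all windows) were found in B2m, H2-T22 and H2-T23. They were searched for by a fixed pattern, which misses other spellings. In H2-K1, H2-D1 and H2-Q6 a similar stretch that the pattern misses, not capitalised, follows the kappaB-like letters. A window without a match was therefore not shown to lack an interferon-response element. A GAS-like element of interferon-gamma response, not capitalised, was found in 1 of 20 class I genes (H2-M3) and 1 of 8 class II genes (H2-DMb2), against 8.3% of all windows. H2-T23, a non-classical class I gene, held both an X core and the interferon-response-like letters. The capitalised motifs do not overlap one another in the printed stretches. All motifs were chosen after the members' windows had been read, and mark matches rather than bound sites.

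Class II genes were carried by 3 highly expressed chains. H2-Ab1, H2-Aa and H2-Eb1 had means of 110.1, 61.5 and 50.9 FPKM over the 15 mice, and the fourth gene, H2-DMb1, had 8.43 FPKM. No class II member or pathway gene passed an adjusted p under 0.05 in any comparison. Yet every class II gene had a higher mean log2 value at 24 than at 3 months (9 of 9, against 63.0% of all 31755 genes tested) and 8 of 9 at 12 than at 3 months (against 64.0% of 31637). Under the median-of-ratios scaling 7 of 9 and 8 of 9 were higher, and without old mouse 32 it was 7 of 9 at 24 against 3 months.

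H2-Ab1 (chr17:34263209-34269418), the beta chain of the I-A molecule, had FPKM of 62.7, 43.9, 113, 82.0 and 168 in young mice 5 to 9. At 12 months the values were 119, 122, 113, 121 and 118. Old mice 31 to 35 had 86.6, 185, 104, 82.4 and 129.8. The 12-month-old mice were close together, above young mice 5, 6 and 8 and below young mouse 9, and the old mice spread widely around them. The log2 fold change, on the log2(FPKM + 1) scale used throughout, was 0.48 ± 0.31 (SE) for 12 against 3 months (95% interval -0.20 to 1.17) and 0.41 ± 0.36 (SE) for 24 against 3 months, with limma adjusted p = 0.517 and 0.662. H2-Aa (chr17:34282744-34287827), its alpha chain, had FPKM of 41.6, 31.1, 59.2, 30.0 and 86.3 in young mice. It had 92.8, 73.7, 59.9, 59.8 and 63.9 at 12 months. Old mice had 47.8, 104, 61.2, 51.5 and 59.7. Young mice 5, 6, 7 and 8 were all below the lowest 12-month-old mouse, and only young mouse 9 reached into that range.

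H2-Eb1 (chr17:34305877-34316199), the beta chain of the I-E type, showed the same division more sharply. No gene named H2-Ea was among the members, and I-E protein was not measured. The FPKM of H2-Eb1 were 31.6, 21.6, 32.2, 31.6 and 67.3 in young mice. At 12 months they were 78.3, 66.5, 60.7, 51.2 and 60.6. In old mice they were 43.7, 82.1, 45.3, 37.6 and 52.5. Young mice 5 to 8 were below every older mouse, and young mouse 9 was exceeded by 1 mouse at 12 months and 1 old mouse. At 12 against 3 months it differed by 0.86 ± 0.26 (SE) on the log2 scale (limma adjusted p = 0.178). At 24 against 3 months the difference was 0.54 ± 0.30 (SE), with adjusted p = 0.450.

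Cd74, the invariant chain on chromosome 18, was the third most abundant member after B2m and H2-Ab1, with FPKM of 62.3, 53.3, 92.9, 49.5 and 128 in young mice. The 12-month-old mice had 127, 102, 103, 100.2 and 118. The old mice had 78.0, 157, 88.9, 71.5 and 138. Its unadjusted limma p was 0.0370 for 12 against 3 months (log2 fold change 0.60 ± 0.25 (SE), adjusted p = 0.313) and 0.154 for 24 against 3 months (0.49 ± 0.31 (SE), adjusted p = 0.525). Ciita (chr16:10488178-10527564), the class II transactivator, was far less abundant, as 1 transcript of 19 exons with FPKM of 0.772, 0.631, 1.27, 1.06 and 1.66 in young mice. At 12 months Ciita had 2.23, 1.93, 1.48, 1.54 and 2.06. Old mice had 1.86, 3.60, 1.06, 1.54 and 1.49. Its log2 fold change was 0.47 ± 0.16 (SE) for 12 against 3 months (unadjusted p = 0.0138, adjusted p = 0.218) and 0.45 ± 0.23 (SE) for 24 against 3 months (adjusted p = 0.397). In both genes young mice 5 to 8 were below every 12-month-old mouse, and the old mice overlapped both ages.

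**Figure D1:**
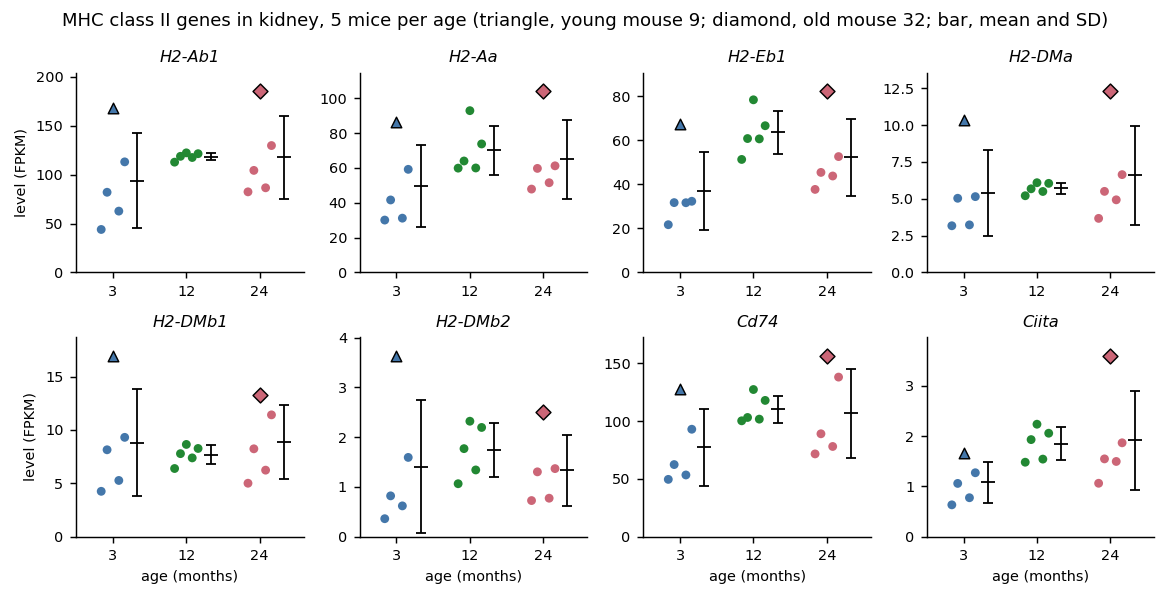
Levels in FPKM (vertical axes, from 0) of 8 class II genes in single mice at 3, 12 and 24 months (horizontal axes), with the mean and SD of 5 mice as bars. Young mouse 9 (triangle) was the highest young mouse in all 8 panels and old mouse 32 (diamond) the highest old mouse, and the 12-month-old mice were close together.

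The peptide exchange factor H2-DM differed less. H2-DMa had 5.39 ± 2.94 FPKM (mean ± SD, n = 5) in young mice, 5.70 ± 0.374 at 12 months and 6.61 ± 3.36 in old mice. H2-DMb1 had 8.78 ± 5.02, 7.68 ± 0.873 and 8.83 ± 3.48 FPKM, and H2-DMb2 1.41 ± 1.33, 1.74 ± 0.539 and 1.33 ± 0.715 FPKM at the same ages. The limma adjusted p of the H2-DM genes lay above 0.6 in the comparisons of older with young mice, with a log2 fold change of -0.04 ± 0.29 (SE) for H2-DMb1 at 12 against 3 months. H2-Oa and H2-Ob, which encode the H2-DM inhibitor, were at 0 to 0.56 FPKM and 0.22 to 1.82 FPKM over the 15 mice.

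H2-Eb2, a second I-E beta gene (chr17:34325665-34340229), had low values at every age. Young mice had 0.0224, 0.0245, 0.0558, 0 and 0.0792 FPKM. At 12 months the mice had 0.200, 0.118, 0.105, 0.218 and 0.258 FPKM. Old mice had 0.0560, 0.101, 0.128, 0.0379 and 0.159 FPKM. All 12-month-old mice exceeded all young mice, and the old mice overlapped both. The limma adjusted p was 0.0838 for 12 against 3 months and with all 15 mice in 1 fit it was 0.0437. On the log2(FPKM + 1) scale the difference of 0.19 ± 0.04 (SE) understates the ratio of such low values. H2-Eb2 also differed between 24 and 12 months at an unadjusted p = 0.0405, where it fell by 0.11 on the log2 scale (adjusted p = 0.759).

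Counted over the class, 2 of 9 class II genes (H2-Eb1 and H2-Eb2) and both class II pathway genes had an unadjusted limma p under 0.05 at 12 against 3 months, all higher at 12 months, against 14.3% of all genes tested (11.4% higher and 2.9% lower). After median-of-ratios scaling Cd74 was no longer among them. At 24 against 3 months it was 1 of 9 (H2-Eb2) and 0 of 2, against 14.9% of all genes (11.4% higher and 3.47% lower). At 24 against 12 months it was 1 of 9, against 6.43% (3.07% higher and 3.36% lower). The median log2 fold change of the 9 genes was 0.31, 0.24 and -0.11 in these comparisons, beside 0.02, 0.02 and -0.00126 over all genes tested. Adjusted p-values under 0.05 were reached by 0.25%, 1.22% and 0.0031% of all genes and by 0 of the 45 members. For bulk tissue, fewer cells of a type and less RNA per cell cannot be told apart.

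The comparisons with young mice were sensitive to young mouse 9. Its library was the highest of its age for 20 of the 24 MHC and pathway genes with a mean of at least 1 FPKM. All 8 class II and class II pathway genes were among them. Without mouse 9, 6 of 9 class II genes (H2-Ab1, H2-Aa, H2-Eb1, H2-DMa, H2-DMb2 and H2-Eb2) had an unadjusted p under 0.05 at 12 against 3 months, against 13.9% of all genes. At 24 against 3 months it was 4 of 9 (H2-Aa, H2-Eb1, H2-Eb2 and H2-Ob), against 14.2%. The log2 fold change of H2-Eb1 was then 1.09 ± 0.15 (SE) for 12 against 3 months (limma adjusted p = 0.0550) and 0.78 ± 0.23 for 24 against 3 months (adjusted p = 0.163). Old mouse 32 was the highest old mouse for 21 of the same 24 genes, and without it 0 of 9 class II genes had an unadjusted p under 0.05 at 24 against 3 months, against 15.4% of all genes. Both mice were picked by these same values. Leaving out the highest young mouse for a gene has to enlarge its difference, and leaving out the highest old mouse has to lessen it. The p-values without either mouse therefore cannot test a class II difference. No label sets either mouse apart, and neither was left out of the main values.

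**Figure D2:**
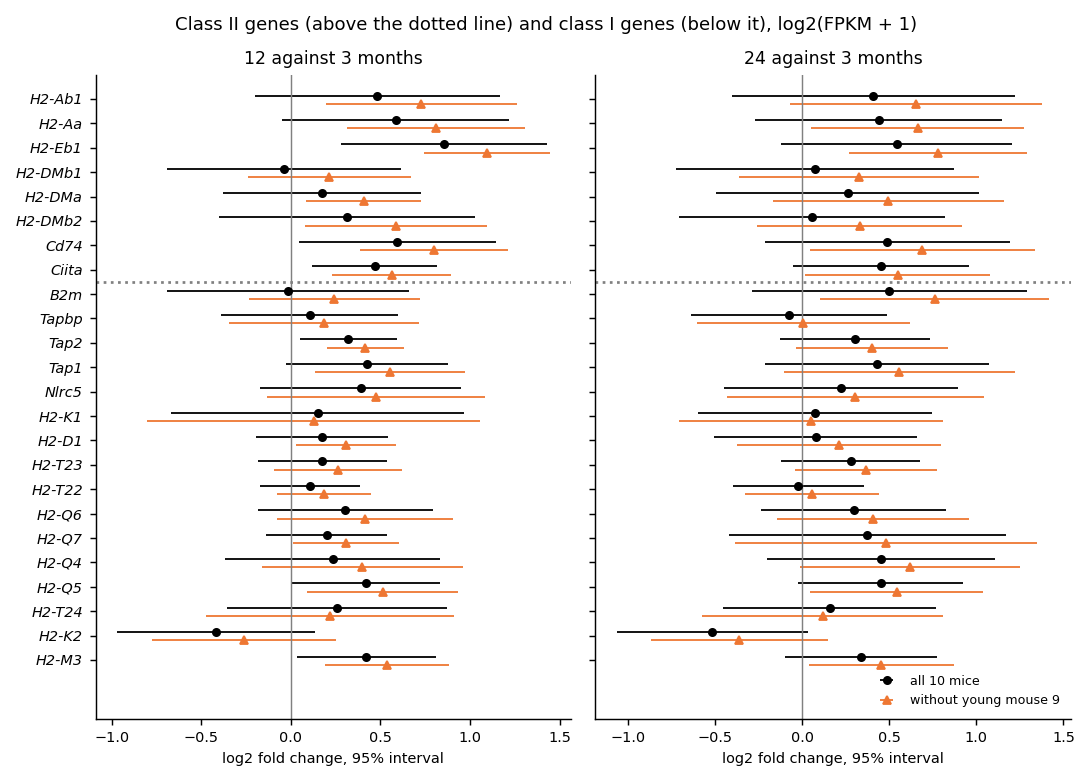
Log2 fold changes on the log2(FPKM + 1) scale (horizontal axes, bars are 95% intervals of the limma fit) of the 24 class II (above the dotted line) and class I genes (below it) with a mean of at least 1 FPKM, from all 10 mice (black) and without young mouse 9 (orange). Leaving out that mouse moved the class II values to the right, H2-Eb1 from 0.86 to 1.09 at 12 against 3 months. Most class I values there moved right as well, H2-D1 from 0.17 to 0.31 and B2m from -0.02 to 0.24. Only H2-K1 (0.15 to 0.13) and H2-T24 (0.26 to 0.22) moved left.

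Class I genes were led by H2-K1 and H2-D1, the classical heavy chains, with means of 77.9 and 54.2 FPKM over the 15 mice, followed by the non-classical H2-T23 (29.9 FPKM) and H2-T22 (20.4 FPKM). No class I member or pathway gene passed an adjusted p under 0.05, and the closest was H2-Q2 at 24 against 3 months (limma adjusted p = 0.0631). Of the 27 class I genes, 11 had a mean of at least 1 FPKM and 16 did not. The weaker 16 ranged from H2-Q10 at 0.956 FPKM to H2-M10.6 at 0.00089 FPKM, and 9 class I genes were at 0 in at least 1 mouse.

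H2-K1 (chr17:33996017-34000333) had FPKM of 63.6, 38.1, 119, 86.3 and 65.3 in young mice. At 12 months the values were 130.5, 46.2, 48.9, 103 and 90.9. Old mice had 89.9, 88.2, 88.2, 47.0 and 64.0. The values scattered over the same range at each age, and neither young mouse 9 nor old mouse 32 was the highest. The log2 fold change was 0.07 ± 0.30 (SE) for 24 against 3 months, with a 95% interval of -0.60 to 0.74 and limma adjusted p = 0.924. H2-K1 was the sum of 11 transcripts, of which 3 were assembled and unannotated, and the annotated ones held 72.7% of its FPKM. The part of this division in its spread was not tested.

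H2-D1 (chr17:35262730-35267499), with 4 annotated transcripts, had FPKM of 38.9, 43.5, 51.5, 47.3 and 72.4 in young mice. It had 69.8, 58.3, 51.5, 48.7 and 53.7 at 12 months. Old mice had 47.4, 90.4, 38.2, 37.2 and 63.8. Here mice 9 and 32 were the highest of their ages. It differed by 0.17 ± 0.16 (SE) for 12 against 3 months (95% interval -0.20 to 0.54) and 0.08 ± 0.26 (SE) for 24 against 3 months (95% interval -0.51 to 0.66), with limma adjusted p = 0.655 and 0.907.

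B2m (chr2:122147686-122153083), the light chain of every class I molecule, was the most abundant member. Its FPKM were 197, 217, 289, 189 and 541 in young mice. At 12 months they were 250.2, 264, 342, 292 and 180.0. In old mice they were 254, 398, 351, 295 and 683. Young mouse 9 and old mouse 35 exceeded all others, and the other mice of all ages overlapped. B2m differed by 0.50 ± 0.35 (SE) for 24 against 3 months and -0.02 ± 0.30 (SE) for 12 against 3 months, with limma adjusted p = 0.564 and 0.985.

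Among the loading genes, Tap2 alone had an unadjusted limma p under 0.05, at 12 against 3 months (log2 fold change 0.32 ± 0.12 (SE), adjusted p = 0.271), and not after median-of-ratios scaling. Its FPKM were 3.54, 3.87, 4.76, 4.86 and 6.28 in young mice. They were 5.68, 6.21, 6.22, 5.75 and 6.02 at 12 months. In old mice they were 5.44, 8.89, 5.21, 4.01 and 6.80. The 12-month-old mice were all above young mice 5 to 8 and below young mouse 9. Tap1 had 4.05 ± 1.52, 5.54 ± 0.673 and 5.89 ± 2.56 FPKM (mean ± SD, n = 5) at 3, 12 and 24 months, Tapbp 13.7 ± 4.73, 14.3 ± 2.52 and 12.7 ± 3.70, and the transactivator Nlrc5 (chr8:94434356-94527272) 3.68 ± 1.66, 4.80 ± 0.574 and 4.31 ± 1.58. The limma adjusted p of Tap1 was 0.380 for 12 against 3 months, and that of Nlrc5 was 0.525.

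**Figure D3:**
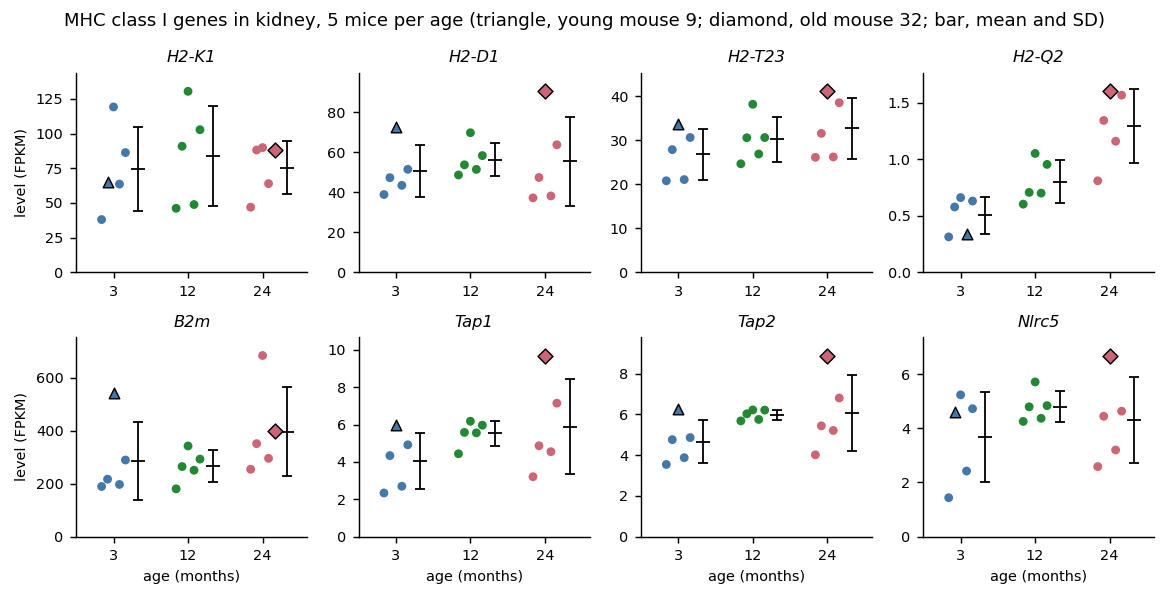
Levels in FPKM (vertical axes, from 0) of 4 class I heavy chain genes and 4 class I pathway genes in single mice at 3, 12 and 24 months (horizontal axes), with the mean and SD of 5 mice as bars. H2-Q2 was the one panel in which old and young mice did not overlap, and H2-K1 scattered at all ages.

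The smaller class I genes included the 1 member whose young and old mice did not overlap. H2-Q2 (chr17:35342242-35346762), a gene of the Q region of non-classical class I genes, had FPKM of 0.314, 0.661, 0.579, 0.631 and 0.336 in young mice. At 12 months it had 0.955, 1.05, 0.604, 0.707 and 0.701. Old mice had 1.57, 1.60, 1.16, 0.810 and 1.34. All old mice exceeded all young mice, and the 12-month-old mice lay between with overlap on both sides. H2-Q2 differed by 0.61 ± 0.13 (SE) on the log2 scale at 24 against 3 months and 0.34 ± 0.13 (SE) at 24 against 12 months (limma adjusted p = 0.0631 and 0.747). With all 15 mice in 1 fit the adjusted p for 24 against 3 months was 0.0217. Groups not overlapping were seen in 4.73% of all genes at 24 against 3 months (3.82% higher) and 4.11% at 12 against 3 months (3.45% higher), where H2-Eb2 and H2-M5 (0.0102 to 0.0518 FPKM in young mice and 0.0682 to 0.155 FPKM at 12 months) were the 2 members of this kind, and at 24 against 12 months in 1.07% of all genes and no member.

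At 12 against 3 months, 5 of 27 class I genes had an unadjusted p under 0.05, all higher at 12 months. They were H2-Q2, H2-Q5 (3.21 ± 1.01 and 4.56 ± 0.905 FPKM at 3 and 12 months), H2-M3 (0.680 ± 0.398 and 1.21 ± 0.260 FPKM), which presents formylated peptides, H2-M2 (0.0673 ± 0.0485 and 0.201 ± 0.127 FPKM) and H2-M5. Set against 14.3% of all genes, this is 18.5% of class I, and 1 of the 5 (H2-M5) stayed under 0.05 after median-of-ratios scaling. At 24 against 3 months 2 of 26 tested did so, H2-Q2 and H2-Q1 (0.102 ± 0.0349 and 0.213 ± 0.103 FPKM), which is 7.69% against 14.9% of all genes. The median log2 fold change of class I genes was 0.12 at 24 against 3 months and 0.14 at 12 against 3 months, and 20 of 26 and 21 of 27 were above 0, against 63.0% and 64.0% of all genes. H2-M10.6 was at 0 in every young and old mouse and H2-Pa in every young and 12-month-old mouse, and each was left out of that test.

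Levels within the Q region are uncertain. H2-Q4, H2-Q5, H2-Q6 and H2-Q7, near-identical neighbours with means of 8.92, 4.17, 12.2 and 9.32 FPKM over 15 mice, were assembled as 1 locus, and annotated transcripts held 57.5%, 43.3%, 20.5% and 52.7% of their FPKM. H2-T24 had a mean of 1.69 FPKM and the pseudogene H2-K2 of 1.31 FPKM, and of the 11 class I genes above 1 FPKM H2-K2 alone, joined by H2-T22 after median-of-ratios scaling, had log2 fold changes under 0 in both comparisons with young mice when all transcripts were summed (log2 fold change -0.52 ± 0.25 (SE) and -0.42 ± 0.25 (SE), limma adjusted p = 0.368 and 0.483). Outside both classes, H2-Ke6, an enzyme gene of the region, ranged from 1.28 to 22.2 FPKM over the 15 mice with all ages overlapping.

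Set side by side, the classes had similar totals but different spreads. The 27 class I genes summed to 149.9 to 259 FPKM in young mice, 188 to 317 at 12 months and 162 to 325 in old mice. The 9 class II genes summed to 106 to 354, 247 to 307 and 182 to 401 FPKM. The median coefficient of variation among 5 mice was 53.2%, 13.5% and 37.6% for class II genes with a mean of at least 1 FPKM and 31.5%, 19.8% and 33.9% for class I genes at 3, 12 and 24 months. All 6 such class II genes and 8 of the 11 class I genes varied least at 12 months. In young mice the class II sum was 0.705 to 0.874 times the class I sum in mice 5 to 8 and 1.44 times in mouse 9, against 0.968 to 1.48 times at 12 months and 0.835 to 1.23 times in old mice.

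The log2 ratio of H2-Ab1 to H2-K1, which is free of library scaling, was 0.28 ± 0.62 (SD, n = 5) in young mice, 0.62 ± 0.66 at 12 months and 0.62 ± 0.50 in old mice. The difference was 0.34 for 24 against 3 months (exact permutation test, two-sided, p = 0.405), 0.34 for 12 against 3 months (exact permutation p = 0.365) and 0.000579 for 24 against 12 months (exact permutation p = 0.992), where the smallest p possible is 0.00794. Young mice 5 to 8 had log2 ratios of -0.0759 to 0.206 and mouse 9 had 1.36. Without mouse 9 the difference for 24 against 3 months was 0.61 (exact permutation p = 0.0476). Mouse 9 had the highest young ratio, so leaving it out had to enlarge the difference, and this p is no separate support for it. From annotated transcripts alone the differences were 0.76 for 24 against 3 months (exact permutation p = 0.0714), 0.55 for 12 against 3 months (exact permutation p = 0.175) and 0.21 for 24 against 12 months (exact permutation p = 0.579). The log2 ratio of H2-Aa to H2-D1 rose by 0.42 from 3 to 12 months (exact permutation p = 0.0238) and was 0.37 higher at 24 than at 3 months (exact permutation p = 0.159).

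How far genes of a class moved together was read from 9 pairs, compared on log2(FPKM + 1) in the 15 mice with 100000 permutations, two-sided, and Benjamini-Hochberg adjustment over the pairs. Cd74 followed H2-Ab1 with Pearson's r = 0.89 (permutation p = 1.00e-05, the smallest they can give, adjusted p = 4.50e-05) and Spearman's rho = 0.92 (permutation p = 2.00e-05, adjusted p = 1.80e-04). The value was 0.87 with each age centred (permutation p = 0.00237, adjusted p = 0.00897) and 0.92 without the 2 mice farthest from the median. The 2 mice were chosen in every pair by the first gene named alone, here Cd74. H2-Aa followed H2-Ab1 with r = 0.87 and rho = 0.82 (permutation p = 3.00e-05 and 3.70e-04, adjusted p = 9.00e-05 and 0.00111), 0.84 within ages and 0.87 without the 2 farthest mice. Ciita followed H2-Ab1 with r = 0.79 and rho = 0.70 (permutation p = 7.90e-04 and 0.00468, adjusted p = 0.00178 and 0.0105) and 0.74 within ages, but this rested in part on young mouse 6 and old mouse 32, without which r was 0.57 (adjusted p = 0.0968).

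In class I, H2-K1 with H2-D1 gave r = 0.27 and rho = 0.33 (permutation p = 0.337 and 0.233, adjusted p = 0.379 and 0.290), 0.25 within ages and 0.27 without the 2 farthest mice. B2m with H2-K1 gave r = -0.09 and rho = -0.10 (permutation p = 0.764 and 0.715, adjusted p = 0.764 and 0.715), -0.09 within ages and 0.04 without 2 mice. Nlrc5 with H2-K1 gave r = 0.56 and rho = 0.55 (permutation p = 0.0285 and 0.0363, adjusted p = 0.0427 and 0.0544) and 0.56 within ages. Without young mice 5 and 6 its r was 0.33. Tap1 and Tap2, the chains of the transporter, had the highest r of the 9 pairs with r = 0.95 and rho = 0.86 (permutation p = 1.00e-05 and 1.00e-04, adjusted p = 4.50e-05 and 4.50e-04), 0.94 within ages and 0.93 without 2 mice.

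Across the classes, H2-Ab1 with H2-K1 gave r = 0.41 and rho = 0.31 (permutation p = 0.131 and 0.258, adjusted p = 0.168 and 0.290), 0.40 within ages and 0.05 without 2 mice. Cd74 with B2m gave r = 0.63 and rho = 0.57 (permutation p = 0.0111 and 0.0291, adjusted p = 0.0200 and 0.0524). It gave 0.74 within ages (permutation p = 0.00871, adjusted p = 0.0157). Without young mice 6 and 8, chosen by Cd74, r was 0.53 (permutation p = 0.0609, adjusted p = 0.110). Young mouse 9 and old mouse 35, the highest for B2m, were kept there. Within single ages of 5 mice, given as a description, r at 3, 12 and 24 months was 0.86, -0.13 and 0.96 for Cd74 with H2-Ab1, 0.87, 0.28 and 0.94 for H2-Aa with H2-Ab1, 0.99, 0.31 and 0.69 for Ciita with H2-Ab1. It was 0.93, 0.18 and 0.99 for Tap1 with Tap2, 0.85, 0.63 and 0.29 for Nlrc5 with H2-K1, and 0.94, -0.60 and 0.76 for Cd74 with B2m. For H2-K1 with H2-D1 it was 0.22, 0.33 and 0.34, and for B2m with H2-K1 0.10, -0.41 and -0.13. H2-Ab1 with H2-K1 gave 0.60, 0.22 and 0.38. The 12-month-old mice gave the lowest r of the ages except for Nlrc5 with H2-K1 and H2-K1 with H2-D1. The coefficient of variation at 3, 12 and 24 months was 51.8%, 3.18% and 35.8% for H2-Ab1 and 22.9%, 4.22% and 30.7% for Tap2. For H2-K1 it was 40.7%, 43.1% and 25.5%. A spread as small as that of H2-Ab1 and Tap2 at 12 months limits r. The mice share their libraries across all pairs, and the difference between one r and another was not tested.

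**Figure D4:**
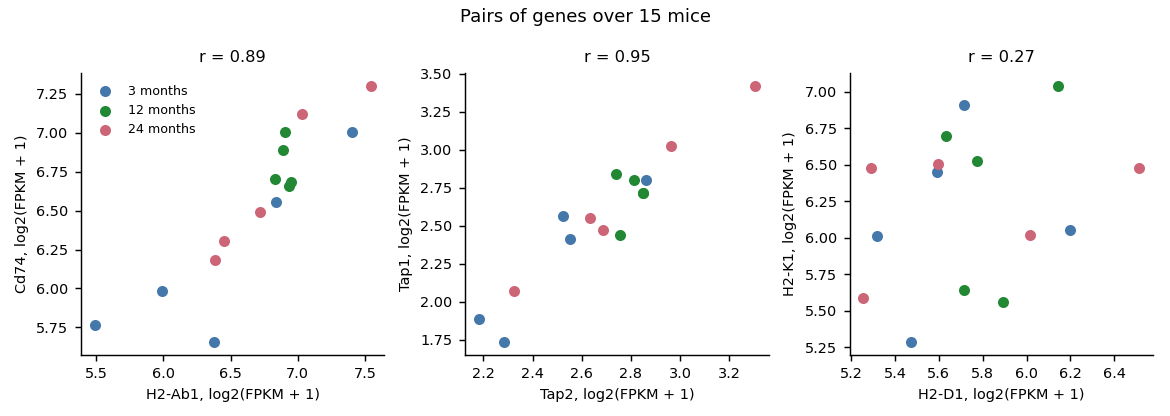
Levels on the log2(FPKM + 1) scale of 3 pairs of genes, each point 1 of 15 mice coloured by age. Cd74 followed H2-Ab1 (r = 0.89) and Tap1 followed Tap2 (r = 0.95), and H2-K1 against H2-D1 gave r = 0.27.

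Other genes of antigen presentation were read from fixed lists. The MHC-like genes outside the H2 region were those with calls. Procr, which encodes the endothelial protein C receptor with a class I-like fold, had FPKM of 0.335, 0.214, 0.123, 0.225 and 0.155 in young mice. At 12 months it had 0.855, 0.660, 0.664, 0.622 and 0.502. Old mice had 0.523, 0.604, 0.980, 0.707 and 0.702. No older mouse overlapped a young mouse, and Procr was higher by 0.49 ± 0.08 (SE) on the log2 scale at 24 against 3 months (limma adjusted p = 0.0299) and by 0.45 ± 0.07 (SE) at 12 against 3 months (adjusted p = 0.0495). Leaving out 1 mouse kept the adjusted p under 0.05 in 4 of 10 fits for 24 against 3 months and in 0 of 10 for 12 against 3 months, with log2 fold changes of 0.43 to 0.53 and 0.41 to 0.49 and a largest adjusted p of 0.0724 and 0.114. After median-of-ratios scaling the limma adjusted p of Procr was 0.0409 and 0.0676. Azgp1, the zinc-binding alpha-2-glycoprotein of class I-like fold, had 24.8 to 40.3 FPKM in young mice, 49.0 to 80.2 at 12 months and 51.2 to 61.2 in old mice, also without overlap between young and older mice. Its log2 fold change was 0.66 ± 0.13 (SE) for 24 against 3 months (limma adjusted p = 0.049995) and 0.75 ± 0.18 (SE) for 12 against 3 months (adjusted p = 0.103), and for 24 against 3 months 1 of 10 fits without a mouse stayed under 0.05, while median-of-ratios scaling gave an adjusted p of 0.112. At 24 against 3 months, 4 of 6 genes of this list (Azgp1, Cd1d1, Fcgrt and Procr) were higher at an unadjusted limma p under 0.05. At 12 against 3 months it was 5 of 6 (Azgp1, Cd1d1, Hfe, Mr1 and Procr). Of all genes tested, 14.9% and 14.3% had such a p (11.4% higher in each). The median log2 fold changes of the list were 0.41 and 0.46, beside 0.02 and 0.02 over all genes. The 6 genes summed to 71.4 to 91.2 FPKM in young mice, 94.6 to 149 at 12 months and 103 to 123 in old mice.

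For the other lists no gene passed an adjusted p under 0.05 in limma. Of all genes tested, 14.9% at 24 and 14.3% at 12 against 3 months had an unadjusted p under 0.05 (11.4% higher in each). Of 7 endosomal proteases and thiol reductase genes, Ctss and Ctsh were higher and Lgmn lower at 24 against 3 months at an unadjusted p under 0.05, and Ctss alone was higher at 12 months. Ctss, cathepsin S, trims the invariant chain in antigen-presenting cells, and had 7.81 ± 3.64, 13.6 ± 3.64 and 12.5 ± 2.38 FPKM (mean ± SD, n = 5) at 3, 12 and 24 months. Of 10 regulators of MHC promoters, Nfyb was higher and Creb1 and Nfya lower at 24 against 3 months and Creb1 lower at 12 months. Creb1 had 11.4 ± 0.660, 8.94 ± 2.31 and 9.18 ± 1.11 FPKM. Of 6 interferon-gamma pathway genes, Socs1 was higher at 24 months and Ifngr2 at 12 months. Of 5 genes of class II turnover and costimulation, March8 was lower at 24 months and Cd40 higher at 12 months. None of 6 immunoproteasome and PA28 genes or of 5 peptide loading genes had an unadjusted p under 0.05 in these 2 comparisons, with median log2 fold changes of 0.23 and 0.17 for the former and 0.10 and 0.08 for the latter. At 24 against 12 months, 1 gene of these 7 lists did so, Nfyb, against 6.43% of all genes.

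Several markers of leukocytes were higher in older mice, and their part in the result was not tested. Of all genes tested, 11.4% were higher at an unadjusted limma p under 0.05 in each comparison with young mice. The pan-leukocyte Ptprc had 0.830 to 4.05 FPKM in young mice, 2.04 to 6.82 at 12 months and 3.24 to 5.87 in old mice. Of 7 dendritic cell markers, 3 (Itgax, Flt3 and Clec9a) were higher at 24 and 2 (Itgax and Flt3) at 12 months at an unadjusted p under 0.05, and the list summed to 5.33 to 6.54, 6.38 to 8.34 and 6.65 to 9.10 FPKM. Itgax, which encodes CD11c, had 1.08 ± 0.526, 2.27 ± 0.331 and 2.31 ± 0.396 FPKM (mean ± SD, n = 5). The B cell markers Cd79a, Cd79b and Ms4a1 were higher at 24 months and Cd79a and Cd79b at 12 months at an unadjusted p under 0.05, and Cd79a, a chain of the B cell receptor complex, had 0.0371 to 0.215 FPKM in young mice, 0.310 to 1.24 at 12 months and 0.222 to 0.770 in old mice. Of 4 T cell markers, Cd3e was higher in both, and the list summed to 0.655 to 2.42, 2.40 to 3.44 and 1.40 to 4.23 FPKM. Of 8 macrophage markers, 0 had an unadjusted p under 0.05 at 24 and 1 (C1qa) at 12 against 3 months, and they summed to 24.8 to 36.6, 31.1 to 71.8 and 22.7 to 61.2 FPKM. No marker of these lists was at 0 in every mouse of an age.

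Other kidney markers gave few differences. The shares of all genes at an unadjusted limma p under 0.05 are those given above, with 6.43% at 24 against 12 months. Slc5a2 of 3 proximal tubule markers was lower and Pecam1 of 3 endothelial markers higher at 24 against 3 months at an unadjusted p under 0.05, and none of 2 markers each of the thick ascending limb, podocytes, fat and lymph node stroma was. At 12 against 3 months none of these 6 lists held such a gene. At 24 against 12 months Slc5a2 was lower and Slc12a1 higher, and of the macrophage markers above Mrc1 was lower. The 2 fat markers summed to 0 to 3.36 FPKM and the 2 lymph node stroma markers to 1.40 to 3.48 FPKM over the 15 mice.

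Circular RNAs, closed loops made by back-splicing, were deposited for 3 of the members. Ciita hosts 2 of the 4 (circRNA3310, 5 exons, chr16:10506690-10513287, and circRNA4040, 2 exons, chr16:10517688-10518386), Tap1 hosts circRNA275 (4 exons, chr17:34193128-34194980) and Tap2 circRNA9914 (2 exons, chr17:34211870-34212358). Both circles of Ciita were higher in old than in young mice. For circRNA3310 the young mice had FPKM of 1.01, 0.860, 1.56, 1.43 and 1.68. At 12 months the values were 2.57, 2.14, 1.76, 1.78 and 3.36. Old mice had 2.48, 3.95, 1.88, 1.74 and 2.44. Each older mouse exceeded each young mouse, mouse 9 included. With edgeR on the estimated counts the log2 fold change was 0.99 for 24 against 3 months (adjusted p = 0.0173) and 0.89 for 12 against 3 months (adjusted p = 0.0296).

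For circRNA4040 the FPKM were 0.810, 1.16, 2.69, 1.91 and 2.73 in young mice. They were 2.50, 3.16, 3.29, 2.07 and 4.86 at 12 months. Old mice had 4.19, 5.25, 3.00, 3.02 and 3.47. Old and young mice did not overlap, while the 12-month-old mice overlapped both. It differed by 1.08 for 24 against 3 months (edgeR adjusted p = 0.0324) and 0.84 for 12 against 3 months (adjusted p = 0.138). Thus 2 of 4 circles were called at 24 against 3 months, against 13.3% of all 11924 circular RNAs tested (6.66% higher), and 1 of 4 at 12 against 3 months, against 6.63% (3.44% higher). The circles of Tap1 and Tap2 were not called, with log2 fold changes of 0.59 and 0.58 for 24 against 3 months (edgeR adjusted p = 0.341 and 0.192). At 24 against 12 months 0 of 4 were called (0 also at an unadjusted p under 0.05 with edgeR, and by DESeq2 for the 3 to which it gave an adjusted p), against 0.738% of all.

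When each mouse was left out in turn, circRNA3310 kept an adjusted p of at most 0.0391 for 24 against 3 months, and lost the call for 12 against 3 months without young mouse 8 (edgeR adjusted p = 0.0662, the largest) or mouse 17, 18 or 21. For circRNA4040 the call for 24 against 3 months was lost without young mouse 6 or 8 or old mouse 31 (adjusted p = 0.0734, the largest), 32 or 35. The linear Ciita transcript of the same mice had an adjusted p = 0.397 in limma at 24 against 3 months. Its mean FPKM were 1.08, 1.85 and 1.91 at 3, 12 and 24 months, beside 1.31, 2.32 and 2.50 for circRNA3310. Old mouse 32 was the highest mouse for both (3.60 and 3.95 FPKM). The values of circle and transcript come from different tables and tests, and their difference, and so a rise particular to the circle, was not tested. The estimated counts of all 11929 circular RNAs summed to 6974494 to 9889971 per mouse. Whether they include reads of linear host transcripts was not tested. The mean estimated count of circRNA4040 was 11.3 in young mice, 22.9 at 12 months and 26.5 in old mice, and circRNA3310 had 99.1, 208 and 217.

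**Figure D5:**
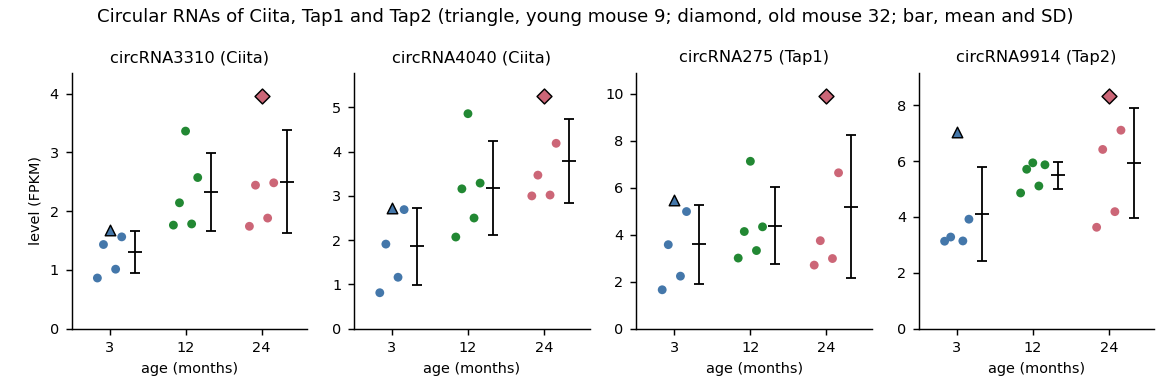
Levels in FPKM (vertical axes, from 0) of the 4 circular RNAs of members in single mice at 3, 12 and 24 months (horizontal axes), with the mean and SD of 5 mice as bars. For circRNA3310 every older mouse was above every young mouse, and for circRNA275 the ages overlapped.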

How the data were processed

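Kidney RNA of 15 mice was sequenced, with 1 library per mouse, and the mice were grouped by the age in the labels. According to the study's methods, Cutadapt removed adapters, Bowtie2 and HISAT2 served for alignment to GRCm38 (Ensembl annotation), and StringTie assembled and merged the transcripts. The submitters' processing notes also name TopHat2. For each transcript the authors deposited FPKM and coverage (a signal) from StringTie. FPKM divides by each library's total, and its low values are not whole reads, so no counting interval was computed. The authors deposited estimated counts and FPKM of circular RNAs, whose making is not given in the sources used here; the counts were rounded. Aligned bases were derived as coverage over FPKM.

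FPKM were summed per gene over transcripts of class code =, c, j or o, and compared in pairs of ages with limma 3.58.1 (trend = TRUE, R 4.3.3) on log2(FPKM + 1). Genes with any FPKM above 0 among those mice were fitted and adjusted together by the Benjamini-Hochberg method. A gene was called at an adjusted p under 0.05. Circular RNAs above 0 in at least 5 of 10 mice were tested with edgeR 4.0.16 (quasi-likelihood, TMM); this readout, the promoter motifs and the attention to young mouse 9 and old mouse 32 were chosen after values had been seen. Both tests were run on simulated data. The ratio was compared by exact permutation. Python 3.11.15 with scipy 1.17.1 was used for the rest. Of the members' 128 annotated transcripts, 110 had the same start and end in GENCODE M21 (GRCm38).

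The genes named are all members with a mean of at least 1 FPKM and all with an unadjusted p under 0.05 in any comparison, with others by range or count; H2-Oa, H2-Ob, H2-Q10, H2-M10.6 and H2-Pa were named outside this rule after their values were seen. The members and lists were chosen with earlier results of these data known. The alternatives were pseudocount 0.1, a filter on low FPKM, TPM, median-of-ratios scaling, annotated transcripts alone, 1 fit of all mice, a robust prior, and each mouse left out, and for circles DESeq2 1.42.0 and no filter, chosen after seeing the data. Columns of sequence annotation were not used. 1 gene of the marker lists is not reported here.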

Additional observations from a re-analysis of the deposited data

Results flagged for a closer look

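In groups of 5 mice, 5 of 75 gene and age groups (the 25 members with a mean of at least 1 FPKM) held 1 mouse whose gap to the nearest other exceeded 0.71 of the range; chance alone flags about 1 in 20 groups. Young mouse 9 stood apart for B2m (541 FPKM, the next being 289), H2-Eb1 (67.3 FPKM, next 32.2) and H2-DMa (10.4 FPKM, next 5.15). Old mouse 32 stood apart for H2-Aa (104 FPKM, next 61.2) and H2-Q6 (20.7 FPKM, next 12.7).

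The gene sums leave out 8 transcripts of 5 members, assembled within introns or on the opposite strand. Of these, 3 had a mean in old mice above the highest young mouse, though not every old mouse was above it. They were picked by this rule, and the share of all left-out transcripts that meet it is not given here. MSTRG.15439.1, within an intron of Tap2, had 0 FPKM in each of 5 young mice, a mean of 1.24 ± 1.14 FPKM (SD, n = 5) in old mice, with 2 old mice at 0, and 0.747 FPKM at 12 months. MSTRG.13568.1, within an intron of Ciita, had 1.45 ± 0.752 FPKM in old mice, 0.920 at 12 months and 0.278 ± 0.205 in young mice. MSTRG.13571.1, opposite Ciita, had 0.628 ± 1.04 FPKM in old mice, 0.156 at 12 months and 0.245 ± 0.264 in young mice, with 2 of 5 mice at 0 in both young and old. These differences were not tested.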

How the results depend on the processing

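No paired analysis was possible because no replicate number occurs at more than 1 age. No member passed an adjusted p under 0.05 in any two-group fit or with any mouse left out; with all 15 mice in 1 fit 1 did at 24 against 3 months (H2-Q2) and 1 at 12 against 3 months (H2-Eb2). The counts at an unadjusted p under 0.05 moved more. For 24 against 3 months, class I had 2, with 0 above a mean of 1 FPKM, 4 with TPM, 4 with all mice in 1 fit and 2 to 5 with 1 mouse left out, and class II had 1, with 0, 2, 0 and 0 to 4 in the same order. For 12 against 3 months class I had 5, with 1 above a mean of 1 FPKM, 3 with TPM, 1 after median-of-ratios scaling and 1 to 7 with 1 mouse left out, and class II had 2, with 1 above a mean of 1 FPKM and 2 to 6. For 24 against 12 months class I had 1, with 2 for annotated transcripts alone and 0 to 2 with 1 mouse left out, and class II had 1, with 0 for pseudocount 0.1, a mean of at least 1 FPKM, TPM and the robust prior, and 0 to 1; TPM moved the share of higher among all genes called there from 47.7% to 68.9%. The filter tests fewer genes; the cause of the other changes was not tested. The H2-Ab1 to H2-K1 difference ranged from 0.23 to 0.61 (24 against 3 months), 0.14 to 0.61 (12 against 3 months) and -0.19 to 0.20 (24 against 12 months) with 1 mouse left out, past 0.05 only without young mouse 9 (0.61); annotated transcripts alone gave 0.76, 0.55 and 0.21, none past 0.05, and the H2-Aa to H2-D1 ratio gave 0.42 for 12 against 3 months and -0.051 for 24 against 12 months. Circles of members called ranged from 1 to 3 (main 2) and 0 to 2 (main 1) with 1 mouse left out. Of 9 pairs, 6 were past an adjusted p of 0.05 and 3 without the 2 farthest mice.

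No named gene with an unadjusted p under 0.05 in its main value changed sign, and no fit with a changed sign had such a p. In all, 31 of 90 log2 fold changes of named genes changed sign in 89 fits (22 in other settings and 67 without 1 mouse). With annotated transcripts alone the values were H2-DMb1 0.0496, H2-K1 -0.058, H2-K2 9.0e-06 and Tapbp -0.089 (12 against 3 months), and H2-Q5 -0.16 and Tapbp 0.10 (24 against 12 months), and H2-K1 -0.34, H2-Q6 -0.11 and Tapbp 0.014 (24 against 3 months). After median-of-ratios scaling the values were H2-T22 -0.024 and Tapbp -0.023 (12 against 3 months), and H2-Q6 0.0077 (24 against 12 months), and H2-D1 -0.039, H2-DMb1 -0.031, H2-DMb2 -0.0059 and H2-K1 -0.043 (24 against 3 months). With TPM the values were Ciita 0.024, H2-Ab1 0.000492, H2-Q6 0.064 and Tap2 0.048 (24 against 12 months), and H2-T22 0.00363 (24 against 3 months). With pseudocount 0.1 the values were Tap1 -0.0071 (24 against 12 months). Leaving out 1 mouse at 12 against 3 months spanned 0 for B2m (-0.13 to 0.24), H2-DMb1 (-0.23 to 0.21), H2-K1 (-0.064 to 0.34), H2-Ke6 (-0.17 to 0.58) and Tapbp (-0.052 to 0.25). Leaving out 1 mouse at 24 against 12 months spanned 0 for Cd74 (-0.26 to 0.016), Ciita (-0.20 to 0.095), H2-Ab1 (-0.26 to 0.035), H2-D1 (-0.29 to 0.024), H2-DMa (-0.14 to 0.24), H2-DMb1 (-0.043 to 0.27), H2-K1 (-0.26 to 0.11), H2-M3 (-0.17 to 0.011), H2-Q1 (-0.0065 to 0.13), H2-Q5 (-0.065 to 0.15), H2-Q6 (-0.18 to 0.11), H2-Q7 (-0.11 to 0.41), H2-T24 (-0.22 to 0.027), Tap1 (-0.17 to 0.16) and Tap2 (-0.15 to 0.10). Leaving out 1 mouse at 24 against 3 months spanned 0 for H2-D1 (-0.12 to 0.21), H2-DMb1 (-0.12 to 0.33), H2-DMb2 (-0.11 to 0.33), H2-K1 (-0.14 to 0.26), H2-T22 (-0.15 to 0.055), H2-T24 (-0.046 to 0.31) and Tapbp (-0.23 to 0.071).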
